A study of Mus musculus with 8 samples.

Results

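The genes described here are 10 genes of antigen presentation by the major histocompatibility complex (MHC), 6 of the class I pathway (B2m, Tap1, Tap2, Tapbp, Psmb8 and Psmb9) and 4 of the class II pathway (Cd74, H2-Aa, H2-Ab1 and Ciita). They were taken by name, and every probe set that carried one of these symbols alone was used, which gave 19 probe sets of the 22626 on the array and 10 genes of 12393. All 10 genes were measured. Expression was measured on 8 Affymetrix arrays from 4 mouse hematopoietic cell lines, PICALM6A, PICALM6B, PICALM6D and PICALM84. All 4 lines are Picalm-null (the fit1 allele, background strain B6(Cg)-TyrC-2J/J) and come from fetal liver at embryonic day 14. They were immortalized with the MLL-ENL fusion oncogene, carried by a retroviral vector with an eGFP marker, by serial replating. All were grown with 10% fetal bovine serum, IL-3 at 5 ng/ml and stem cell factor at 50 ng/ml. Every group therefore carries MLL-ENL and lacks mouse Picalm. From each line, 1 array holds cells with the empty MSCVneo vector (knockout) and 1 array holds cells with human PICALM cDNA in the same vector (rescued), with G418 selection of both. PICALM encodes an adaptor of clathrin-mediated endocytosis, and its level in rescued cells is set by the retroviral promoter. No probe set carried the symbol Picalm alone, so the labels were not checked against the targeted gene. The methods call the 4 lines biological replicates, and nothing states whether they came from separate embryos.

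Class I molecules show peptides from inside the cell to cytotoxic T cells. Proteasomes that carry the immunoproteasome subunits encoded by Psmb8 and Psmb9 cut proteins into peptides, the TAP transporter made of the Tap1 and Tap2 products moves the peptides into the endoplasmic reticulum, tapasin (Tapbp) holds TAP and the class I heavy chain together while peptide is loaded, and beta-2-microglobulin (B2m) is the light chain of the finished molecule. Class II molecules show peptides from the endosome to helper T cells. H2-Aa and H2-Ab1 encode the alpha and beta chains of the I-A molecule, Cd74 encodes the invariant chain that guides them to the endosome, and Ciita encodes the transactivator that most class II genes need. Interferons raise both pathways in many cells, and class II is otherwise typical of dendritic cells, B cells and macrophages.

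Promoter sequences from RefSeq (build GRCm38.p6) are shown for the class I light chain, for the stretch that Tap1 and Psmb9 share and for the class II gene that differed most between lines. Of the 10 genes, 6 matched an entry, and Tap2, Cd74, H2-Ab1 and Ciita did not. The bases before the transcription start are given 5′ to 3′ in lower case with motif matches in capitals. The motifs, searched on both strands, were the core of the interferon-stimulated response element (GAAANNGAA), the interferon-gamma activated site (TTCNNNGAA), a kappaB site (GGGACTTTC), the core of the X2 box (TGACG) and the CCAAT box (ATTGG). They were chosen with these sequences in view. The B2m stretch is on the plus strand at chr2:122147437-122147686. The Tap1 stretch, at chr17:34187331-34187555 on the plus strand, is the whole interval between the start of Tap1 and the start of Psmb9, which is read in the opposite direction, so that both genes share it. The H2-Aa stretch is on the minus strand at chr17:34287824-34288073.
B2m: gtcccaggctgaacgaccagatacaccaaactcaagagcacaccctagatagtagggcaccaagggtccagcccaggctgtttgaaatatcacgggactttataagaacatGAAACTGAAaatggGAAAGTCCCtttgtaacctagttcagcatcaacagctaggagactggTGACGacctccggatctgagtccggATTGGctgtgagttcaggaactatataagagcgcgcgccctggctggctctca
Tap1 and Psmb9: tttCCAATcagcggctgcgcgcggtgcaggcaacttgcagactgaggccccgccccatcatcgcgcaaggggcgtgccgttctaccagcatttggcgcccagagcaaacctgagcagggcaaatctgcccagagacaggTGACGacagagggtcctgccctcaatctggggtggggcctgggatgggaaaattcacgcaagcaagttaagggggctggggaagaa
H2-Aa: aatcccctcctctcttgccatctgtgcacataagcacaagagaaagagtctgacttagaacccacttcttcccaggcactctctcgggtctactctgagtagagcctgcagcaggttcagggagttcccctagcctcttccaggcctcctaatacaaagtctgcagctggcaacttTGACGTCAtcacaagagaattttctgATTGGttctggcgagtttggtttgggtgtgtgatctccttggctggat

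In the B2m stretch, 1 match of the response element core, 1 kappaB site, 1 X2 core and 1 CCAAT box were found. The X2 core and the CCAAT box lay 20 bases apart in B2m and 21 bases apart in H2-Aa, where a pair of overlapping X2 cores reads the same on both strands. An X2 core followed by a CCAAT box at a spacing of 15 to 25 bases stood in 0.381% of the 32851 promoters of the table, and of the 6 matched genes only B2m and H2-Aa held it. Of the single motifs, the kappaB site was rarer still, at 0.289% of promoters. The others were far more common, at 7.13% for the response element core, 7.02% for the activated site, 17.8% for the X2 core and 33.8% for the CCAAT box. The stretch between Tap1 and Psmb9 held 1 X2 core and 1 CCAAT box, Psmb8 held 1 activated site, and Tapbp held 2 CCAAT boxes. These matches describe letters in a window of 250 bases and say nothing of what binds there.

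The transcripts of the class I pathway were highest in PICALM84, above all in its knockout cells. Tap1, on chromosome 17, was at a log2 level of 8.72 in knockout and 8.46 in rescued cells of PICALM6A, 8.86 and 8.59 in PICALM6B, 8.50 and 8.36 in PICALM6D, and 10.73 and 9.10 in PICALM84. Both PICALM84 arrays lay above the other 6, among which the knockout and rescued values overlapped. The knockout cells of PICALM84 had 4.09 times the Tap1 level of the other knockout cells, and its rescued cells 1.55 times that of the other rescued cells. To test lines, the 2 arrays of each line were averaged and PICALM84 was compared with the other 3 lines by limma, with p-values adjusted over all probe sets and a call at the false discovery rate of the study's methods, just above 12%. Tap1 was 2.52-fold higher in PICALM84 (log2 difference 1.33, SE 0.12, adjusted p = 0.00402 from limma). The lone line is assumed in this test to vary like the others, and a permutation over 4 lines cannot give a p below 0.25. The arrays read RNA from whole cultures, so fewer cells with a transcript and less of it per cell cannot be told apart.

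Psmb9, which encodes the immunoproteasome subunit that shares its promoter stretch with Tap1, was at 9.98 and 9.47 in knockout and rescued cells of PICALM6A, 9.98 and 9.68 in PICALM6B, 9.56 and 9.44 in PICALM6D, and 11.55 and 10.19 in PICALM84. It was 2.28-fold higher in PICALM84 (log2 difference 1.19, SE 0.13, adjusted p = 0.00666 from limma), and again both PICALM84 arrays lay above the other 6. Psmb8, the other immunoproteasome subunit, was at 11.47 and 11.04, 11.57 and 11.26, 11.14 and 11.15, and 12.45 and 11.44 in the same order. It was 1.60-fold higher in PICALM84 (adjusted p = 0.0175 from limma), but its rescued array, at 11.44, lay within the range of the other lines.

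Tap2, the partner of Tap1 in the transporter, was at 9.87 and 9.55 in knockout and rescued cells of PICALM6A, 9.92 and 9.69 in PICALM6B, 9.62 and 9.61 in PICALM6D, and 10.32 and 9.58 in PICALM84. Its log2 difference between PICALM84 and the other lines was 0.24 (SE 0.09, adjusted p = 0.109 from limma), close to the threshold, and it came from the knockout cells, where it was 0.51, whereas in rescued cells it was -0.04. In the same line comparison Tap2 gave 1.18-fold and the brightest probe set of Tap1 2.52-fold, while the mean log2 difference over all 4 Tap1 probe sets was 0.38. The difference between the genes was not tested.

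Tapbp was at 10.79 and 10.83 in knockout and rescued cells of PICALM6A, 10.72 and 10.75 in PICALM6B, 10.41 and 10.57 in PICALM6D, and 11.84 and 11.05 in PICALM84 by its brightest probe set. It was 1.70-fold higher in PICALM84 (adjusted p = 0.02 from limma), and by its second probe set 1.35-fold higher (adjusted p = 0.0149). B2m, on chromosome 2 and the only class I member outside chromosome 17, was at 13.35 and 13.24, 13.34 and 13.24, 13.20 and 13.06, and 14.22 and 13.50 in the same order. It was 1.54-fold higher in PICALM84 (adjusted p = 0.0110 from limma), and 1.39-fold higher by its second probe set (adjusted p = 0.0135). For both genes the brightest probe set was higher in both PICALM84 arrays than in the other 6.

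**Figure D1:**
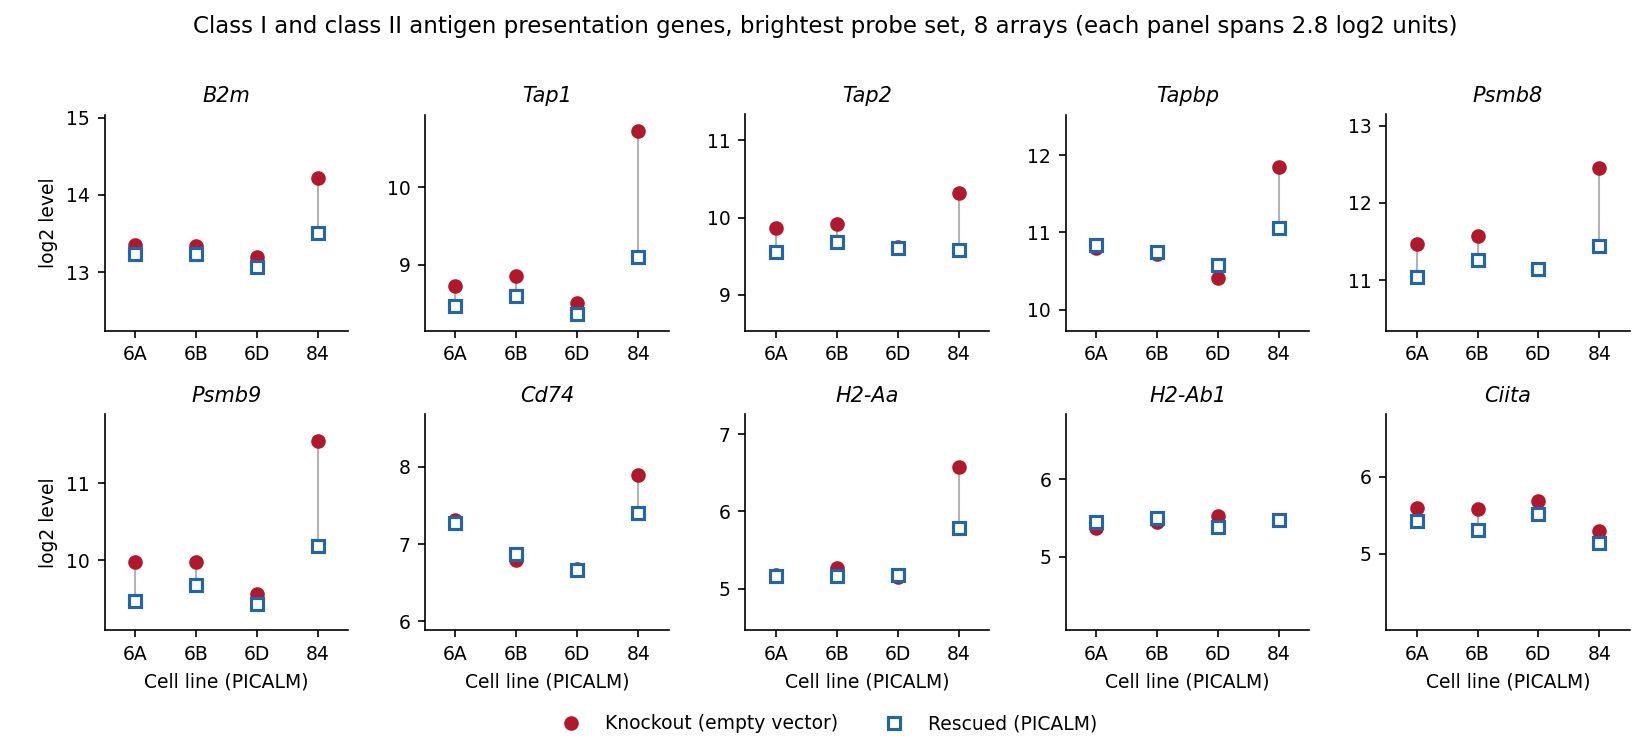
Log2 level (y axis) of each of the 10 genes by its brightest probe set in the knockout (filled circles) and rescued (open squares) array of each of the 4 cell lines (x axis), with 1 panel per gene and all panels spanning the same number of log2 units. The knockout array of PICALM84 is the highest for B2m, Tap1, Tap2, Tapbp, Psmb8, Psmb9, Cd74 and H2-Aa, whereas H2-Ab1 is nearly flat and Ciita is lowest in PICALM84.

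The class II genes were measured at low levels, and fewer of them stood out. Of their 8 probe sets, 7 were among the dimmest 40% of the array, against 2 of the 11 class I probe sets, and the deposited values hold no detection call, so it is unknown which of these lie above background. H2-Aa was at 5.17 and 5.16 in knockout and rescued cells of PICALM6A, 5.27 and 5.16 in PICALM6B, 5.15 and 5.18 in PICALM6D, and 6.57 and 5.79 in PICALM84. Its other 6 arrays spanned a narrow range, and it was 1.99-fold higher in PICALM84 (log2 difference 0.99, SE 0.05, adjusted p = 0.00112 from limma). The second H2-Aa probe set was 1.37-fold higher (adjusted p = 0.00916 from limma). By the endings of their names, both can also bind related sequences.

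H2-Ab1, the beta chain that pairs with H2-Aa, was at 5.37 and 5.45 in knockout and rescued cells of PICALM6A, 5.45 and 5.50 in PICALM6B, 5.52 and 5.38 in PICALM6D, and 5.48 and 5.48 in PICALM84. By this brightest probe set PICALM84 did not stand apart from the other lines (log2 difference 0.04, SE 0.05, adjusted p = 0.670 from limma). A second H2-Ab1 probe set was 1.25-fold higher in PICALM84 (log2 difference 0.32, SE 0.08, adjusted p = 0.0510), and the third differed by 0.10 (adjusted p = 0.482). The 3 probe sets of H2-Ab1 thus did not give the same answer, and all 3 were among the dim ones.

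Cd74, which encodes the invariant chain, was at 7.32 and 7.28 in knockout and rescued cells of PICALM6A, 6.79 and 6.87 in PICALM6B, 6.68 and 6.67 in PICALM6D, and 7.90 and 7.40 in PICALM84. Its line means had an SD of 0.33 over the other 3 lines, the widest of the members, and the rescued PICALM84 array lay only just above PICALM6A. The fit gave 1.64-fold higher in PICALM84 (log2 difference 0.72, SE 0.25, adjusted p = 0.100 from limma). Ciita went the other way: it was at 5.59 and 5.43 in PICALM6A, 5.58 and 5.31 in PICALM6B, 5.68 and 5.52 in PICALM6D, and 5.29 and 5.14 in PICALM84. By this probe set Ciita was 1.23-fold lower in PICALM84 (log2 difference -0.30, SE 0.08, adjusted p = 0.0479 from limma), and by its second probe set the log2 difference was -0.02 (adjusted p = 0.777). Both Ciita probe sets were dim.

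In all, 13 of the 19 probe sets were higher and 1 was lower in PICALM84 than in the other lines. Over all probe sets the shares were 22.1% higher and 18.7% lower, so PICALM84 differed from the other lines in much of the transcriptome. The class I genes gave 9 of 11 probe sets higher and 0 lower in limma, and the class II genes gave 4 of 8 higher and 1 lower. The median log2 difference was 0.44 over the 19 probe sets and 0.02 over all. Both PICALM84 arrays exceeded the other 6 for 11 of the 19 probe sets (7 of class I and 4 of class II), against 21.7% of all probe sets. The 2 class I probe sets that were not called both read Tap1. One ran from 6.58 to 6.95 over the 8 arrays with a log2 difference of -0.10 between PICALM84 and the other lines (adjusted p = 0.285), and the other had a mean level of 4.0 in both groups. The third, also dim, was 1.28-fold higher in PICALM84 (adjusted p = 0.0136 from limma), so the 4 Tap1 probe sets did not all give the difference seen by the brightest.

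The knockout and rescued cells of PICALM84 were also compared with the other lines separately. With knockout arrays alone, 13 probe sets were higher and 1 lower, against 21.8% and 18.2% of all probe sets. With rescued arrays alone, 5 were higher (Tap1, Psmb9, 1 of Tapbp and both of H2-Aa), against 11.6% of all probe sets, and 0 were lower. In this comparison B2m differed by a log2 of 0.31 (adjusted p = 0.138 from limma), Psmb8 by 0.30 (adjusted p = 0.164) and Cd74 by 0.46 (adjusted p = 0.329), none of which passed.

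**Figure D2:**
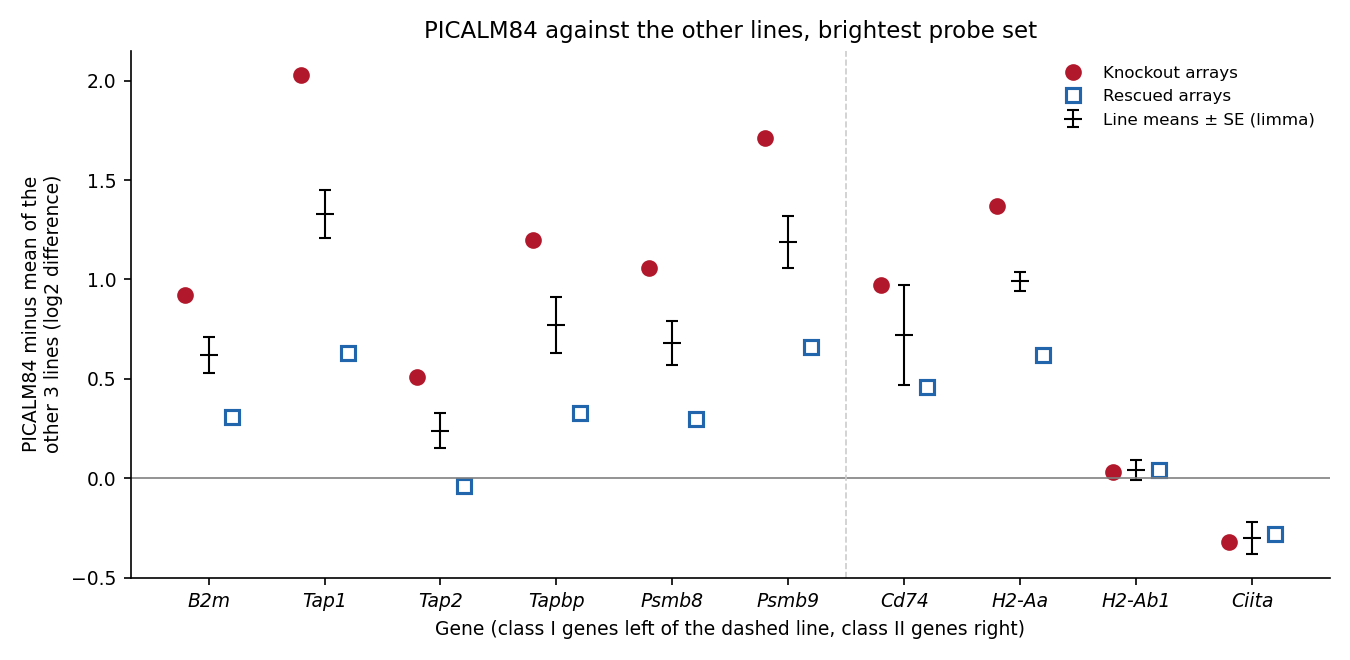
Log2 difference (y axis) between PICALM84 and the mean of the other 3 lines for each gene (x axis, brightest probe set), in knockout arrays (filled circles), in rescued arrays (open squares) and between line means with the SE of limma (bars). For Tap1 the difference is 2.03 in knockout and 0.63 in rescued cells, H2-Ab1 lies near 0 and Ciita below 0 in both.

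The comparison of PICALM-rescued with knockout cells, paired by line, asked whether PICALM expression altered these genes. None of the 19 probe sets passed the threshold in limma, fitted with lines as blocks, where 0.00442% of all probe sets were called higher and 0.0751% lower. At an unadjusted p under 0.05, 4 of the 19 were lower in rescued cells (Ciita, Psmb8, Psmb9 and Tap2) and 0 were higher, against 6.32% of all probe sets lower. Without the block the count was 1. SAM paired by line called 1 member, Ciita, lower, against 2.08% of all probe sets, and the methods' t-test, paired, gave 1 lower without adjustment, against 5.38%, and 0 after it. With 4 lines, an exact test over sign changes cannot give a two-sided p below 0.125.

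By the brightest probe set of each gene, the largest differences were those of 4 class I genes. Rescued minus knockout was a log2 of -0.57 for Tap1 (SE 0.26, adjusted p = 0.434 from limma), -0.57 for Psmb9 (SE 0.20, adjusted p = 0.366), -0.44 for Psmb8 (SE 0.16, adjusted p = 0.370) and -0.33 for Tap2 (SE 0.12, adjusted p = 0.368). B2m differed by -0.27 (SE 0.12, adjusted p = 0.427) and Tapbp by -0.14 (SE 0.16, adjusted p = 0.740). In the class II genes the values were -0.22 for H2-Aa (adjusted p = 0.555), -0.12 for Cd74 (adjusted p = 0.648) and -0.19 for Ciita (SE 0.04, adjusted p = 0.318), and H2-Ab1 was at 0.998 of its knockout level (adjusted p = 0.989). Ciita had the smallest difference among the genes at an unadjusted p under 0.05 and the narrowest spread over the lines, whereas Tap1 and Psmb9 had the largest differences and the widest spreads of the 10 genes.

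Line by line, rescued cells were lower than knockout cells in all 4 lines for 6 of the 19 probe sets, 5 of class I (both of B2m, and Tap1, Tap2 and Psmb9) and 1 of class II (Ciita), against 11.8% of all probe sets. By the brightest Tap1 probe set the log2 difference was -0.26, -0.27, -0.14 and -1.62 in PICALM6A, PICALM6B, PICALM6D and PICALM84. Over all 4 Tap1 probe sets the mean of the lines was -0.14. By the second brightest the log2 difference was 0.33, 0.17, -0.00 and -0.13 in the same lines. In B2m it was -0.11, -0.10, -0.13 and -0.73, and B2m is also the transcript to which the study's methods normalized quantitative PCR of cholesterol genes. By the brightest Ciita probe set it was -0.16, -0.27, -0.16 and -0.15, about as large in PICALM84 as elsewhere. The second Ciita probe set gave 0.00, 0.33, 0.12 and 0.02, and the mean difference over both was -0.03. Both were dim. Averaged over the brightest probe set of each gene, the class I difference was -0.27, -0.20, -0.04 and -1.04 in the 4 lines, and the class II difference -0.03, -0.06, -0.07 and -0.36. PICALM6D thus showed the smallest class I difference, with Psmb8 at 0.01 and Tapbp at 0.17.

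**Figure D3:**
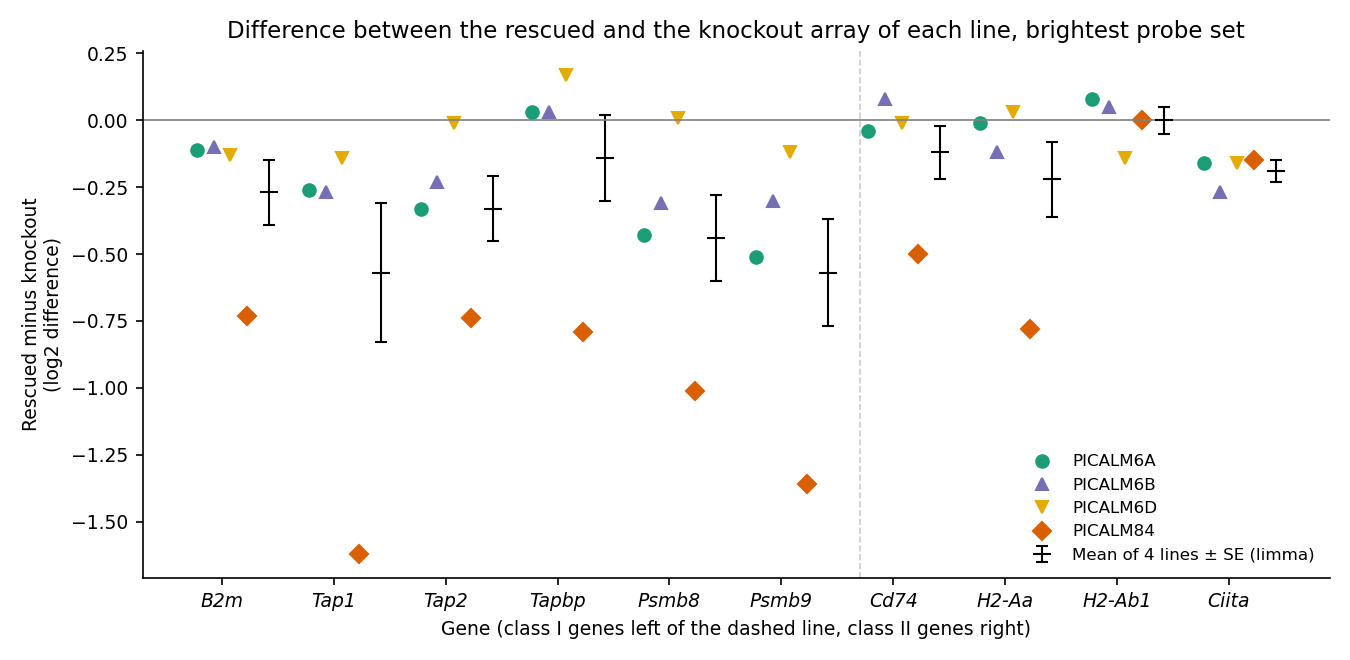
Log2 difference between the rescued and the knockout array (y axis) in each of the 4 cell lines (symbols) for each gene (x axis, brightest probe set), with the mean of the 4 lines and its SE from limma (bars). PICALM84 lies lowest for B2m, Tap1, Tap2, Tapbp, Psmb8, Psmb9, Cd74 and H2-Aa, down to -1.62 for Tap1, and with the other lines for H2-Ab1 and Ciita.

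The values of PICALM84 weighed on these averages, and the comparison was repeated without that line. The difference was then a log2 of -0.22 for Tap1 (SE 0.05, adjusted p = 0.253 from limma), -0.31 for Psmb9 (adjusted p = 0.294), -0.25 for Psmb8 (adjusted p = 0.344), -0.19 for Tap2 (adjusted p = 0.345), -0.12 for B2m (adjusted p = 0.337) and -0.20 for Ciita (adjusted p = 0.266). These 6 genes, with 1 probe set each, were at an unadjusted p under 0.05, against 6.85% of all probe sets lower at that level, and again 0 of the 19 passed adjustment. Tapbp turned to 0.08 and Cd74 to 0.01 without PICALM84.

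Whether the difference between rescued and knockout cells itself differed in PICALM84 was tested by limma on the within-line differences, 1 line against 3. Of the 19 probe sets, 8 had a lower value in PICALM84 and 0 a higher one, against 3.2% of all probe sets lower and 3.82% higher. Class I gave 6 of these 8. For Tap1 the difference in PICALM84 lay below that in the other lines by a log2 of -1.40 (SE 0.10, adjusted p = 0.0118 from limma), for Psmb9 by -1.05 (SE 0.17, adjusted p = 0.0557), for Tapbp by -0.86 (SE 0.10, adjusted p = 0.0293) and for B2m by -0.61 (SE 0.08, adjusted p = 0.0433). In class II it was -0.75 for H2-Aa (SE 0.10, adjusted p = 0.0412) and -0.50 for Cd74 (SE 0.10, adjusted p = 0.0795). Psmb8 (-0.76, adjusted p = 0.128) and Tap2 (-0.55, adjusted p = 0.141) did not pass, and their values varied among the other 3 lines with an SD of 0.23 and 0.16. For H2-Ab1 and Ciita the values were 0.01 (adjusted p = 0.983) and 0.04 (adjusted p = 0.832). Each condition of PICALM84 rests on 1 array. A property of that array, of the culture or of the line cannot be told apart from an effect of PICALM.

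Other genes of the class I pathway followed the members in part. Of 29 listed genes 17 were measured, with 42 probe sets, of which 16 were higher and 4 lower in PICALM84. Over all probe sets 22.1% were higher and 18.7% lower. The rescued minus knockout difference was lower in PICALM84 for 12 of the 42 and higher for 2, against 3.2% and 3.82% of all. The median log2 difference between PICALM84 and the other lines was 0.10. The heavy chain gene H2-K1 was at 13.81 in knockout and 12.50 in rescued cells of PICALM84 and at 12.12 to 12.49 in the other 6 arrays, and was higher by a log2 of 0.86 in the line comparison (adjusted p = 0.00168 from limma). By their brightest probe sets, H2-D1, another heavy chain, was higher by 0.49 (adjusted p = 0.0152), the non-classical class I gene H2-M3 by 0.90 (adjusted p = 0.0275), the third immunoproteasome subunit Psmb10 by 0.43 (adjusted p = 0.0183) and the proteasome activator subunit Psme1 by 0.90 (adjusted p = 0.00202). The peptide-trimming enzyme Erap1 was higher by 0.16 (adjusted p = 0.0783). Npepps, a cytosolic aminopeptidase, was lower, at -0.49 (adjusted p = 0.00774) and by its second probe set at -0.36 (adjusted p = 0.014). The chaperone Canx was at -0.10 by its brightest probe set (adjusted p = 0.253) and lower by another (-0.34, adjusted p = 0.0479). Other chaperones of the peptide-loading complex did not pass, with -0.07 for Calr (adjusted p = 0.400) and -0.14 for Pdia3 (adjusted p = 0.174), and the tapasin-related Tapbpl was at 0.12 (adjusted p = 0.430).

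The genes of the standard proteasome were measured beside the immunoproteasome subunits. Psmb5, Psmb6 and Psmb7, which encode the catalytic subunits that the products of Psmb8, Psmb9 and Psmb10 replace, differed between PICALM84 and the other lines by a log2 of -0.02 (adjusted p = 0.822 from limma), 0.07 (adjusted p = 0.339) and 0.05 (adjusted p = 0.610). The list of 14 such genes with 26 probe sets had 5 higher and 2 lower, against 22.1% and 18.7% of all probe sets, with a median of 0.07. Both PICALM84 arrays exceeded the other 6 for 12 of the 26, against 21.7% of all. For 0 of them the difference between rescued and knockout cells differed in PICALM84, against 3.2% of all lower and 3.82% higher. The mean log2 level of the list was 12.61 and 12.59 in knockout and rescued cells of PICALM84, against 12.50 to 12.54 in the other 6 arrays.

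In the line comparison the other class II genes were called about as often as all probe sets, of which 22.1% were higher and 18.7% lower. Of 23 listed genes 18 were measured, with 32 probe sets, of which 7 were higher and 5 lower in PICALM84, with a median of -0.04. The rescued minus knockout difference was lower in PICALM84 for 5 of the 32 and higher for 1, against 3.2% and 3.82% of all. By their brightest probe sets, H2-Ea and H2-Eb1, which encode chains of the I-E molecule, were higher by 0.35 (adjusted p = 0.0167 from limma) and 0.36 (adjusted p = 0.0140). The other H2-Ea probe sets did not pass, at 0.11 (adjusted p = 0.182 from limma) and -0.08 (adjusted p = 0.286). H2-Oa, a chain of the peptide-loading modulator H2-O, was higher by 0.80 (adjusted p = 0.0123 from limma). Rfx5, a subunit of the factor that binds the X box, was higher by 0.36 (adjusted p = 0.0295), but its partner subunits were not, with -0.37 for Rfxank (adjusted p = 0.022 by its brightest probe set, and -0.04 by each of the others) and -0.02 for Rfxap (adjusted p = 0.846). Creb1, a factor that binds X2 boxes, was lower (-0.31, adjusted p = 0.0292). Ifi30, a lysosomal thiol reductase, was also lower, with a log2 difference of -0.71 (adjusted p = 0.0130). The protease Ctss and the peptide exchanger chain H2-DMa gave -0.43 (adjusted p = 0.224) and -0.27 (adjusted p = 0.405), which did not pass.

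Regulators of both pathways and genes of the interferon response are given with the members because interferon is a known inducer of them. Irf1, a transcription factor of class I genes, was at 10.08 and 9.46 in knockout and rescued cells of PICALM84 and 8.74 to 9.06 in the other 6 arrays, and was higher by 0.84 (adjusted p = 0.00459 from limma). Irf7, a factor of the type I interferon response, was at 9.90 and 7.47 against 6.55 to 6.98. Ifngr1, a receptor chain for interferon-gamma, was lower, with a log2 difference of -0.78 (adjusted p = 0.00364). Over 19 measured regulators of 21 listed, with 29 probe sets, 6 were higher and 4 lower in PICALM84, shares no larger than those over all probe sets. The rescued minus knockout difference was lower in PICALM84 for 5 of the 29 and higher for 1, against 3.2% and 3.82% of all. Of 26 measured interferon-response genes with 33 probe sets, 31 probe sets were higher and 0 lower in PICALM84, with a median of 1.32. Over all probe sets 22.1% were higher and 18.7% lower. The rescued minus knockout difference of the interferon-response list was lower in PICALM84 for 30 of the 33, against 3.2% of all. The mean log2 level of this list was 9.55 and 7.70 in knockout and rescued cells of PICALM84 and 6.72 to 6.87 in the other 6 arrays. As for Tap1 and Psmb9, both PICALM84 arrays lay above the other 6. In knockout and rescued cells the mean was 6.85 and 6.86 in PICALM6A, 6.87 and 6.86 in PICALM6B, and 6.72 and 6.72 in PICALM6D. The class I members differed in these lines by -0.27, -0.20 and -0.04. The part of the interferon-response genes in the class I difference was not tested. Ifng and Ifnb1, which encode interferons themselves, differed by 0.08 (adjusted p = 0.398 from limma) and 0.17 (adjusted p = 0.262).

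**Figure D4:**
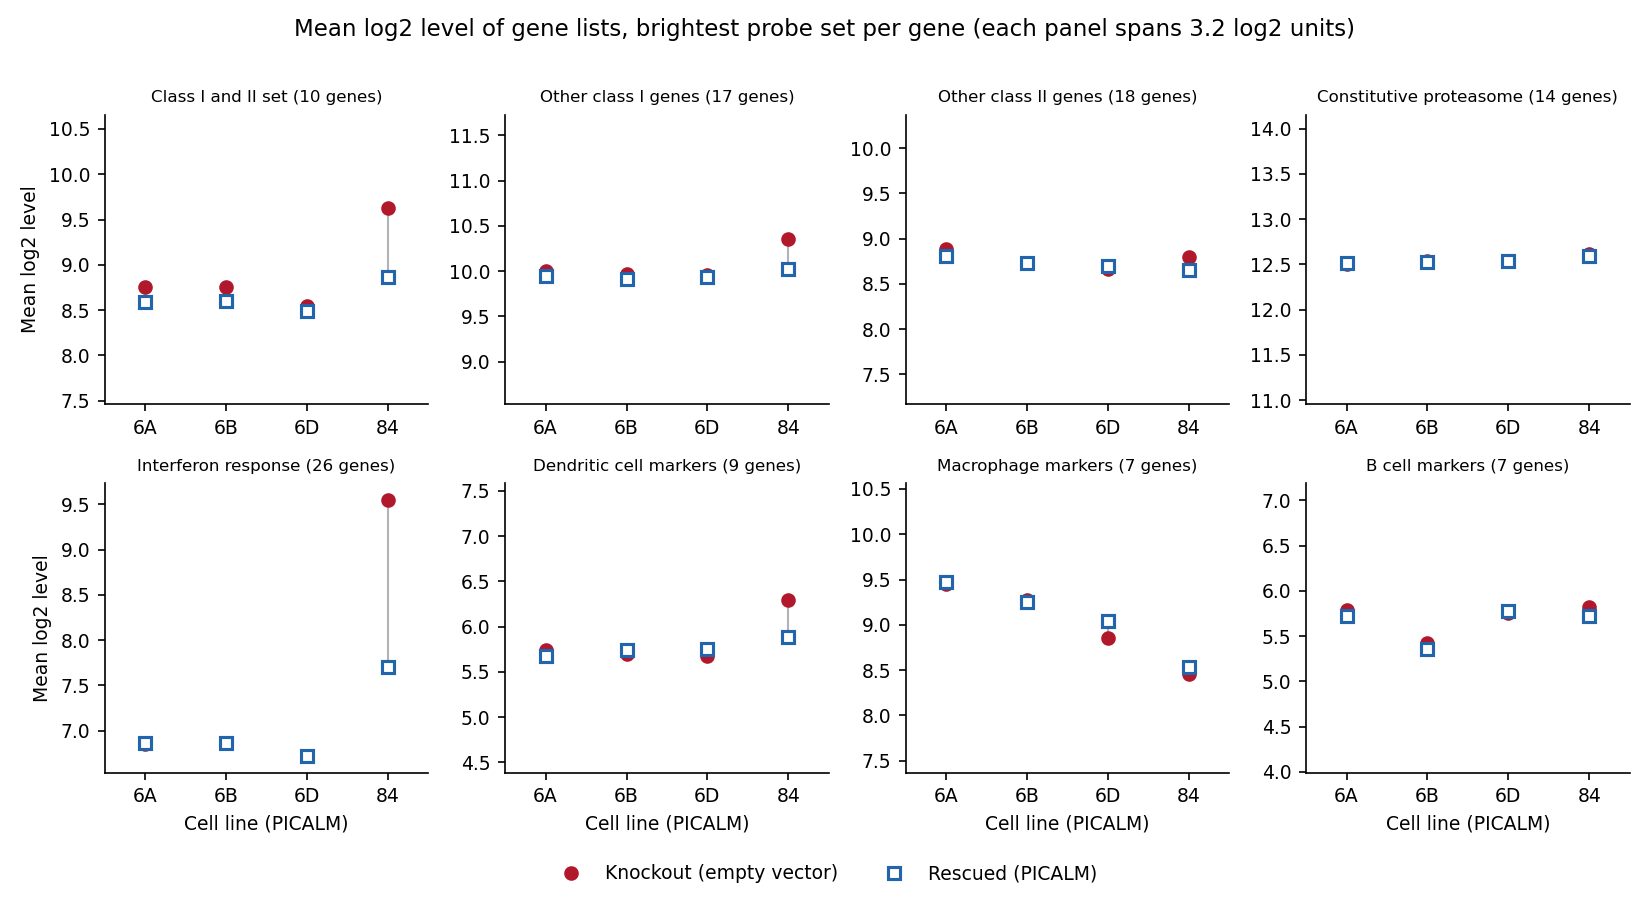
Mean log2 level (y axis) of 8 gene lists in the knockout (filled circles) and rescued (open squares) array of each of the 4 cell lines (x axis), with the brightest probe set of each gene and all panels spanning the same number of log2 units. The knockout array of PICALM84 stands above the rest for the 10 members (9.63) and the interferon response (9.55). The constitutive proteasome spans 12.50 to 12.61, with both PICALM84 arrays slightly above the rest.

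Markers of cells that carry class II were examined beside the members. The progenitor list (Ptprc, Kit, Myb, Cd34, Mpo, Spi1, Gfi1, Csf2rb and Il3ra) had a mean log2 level of 11.08 to 11.26 over the 8 arrays, which hides moves in both directions: of 12 probe sets 4 were higher and 5 lower in PICALM84. Over all probe sets 22.1% were higher and 18.7% lower. Cd34, a surface protein of early progenitors, and Kit, the receptor for stem cell factor, were higher by 1.56 (adjusted p = 0.00375 from limma) and 1.17 (adjusted p = 0.00087), and Gfi1, a transcription factor of granulocytes, and Il3ra, a chain of the IL-3 receptor, were lower (adjusted p = 0.00845 and 0.0031), with Il3ra at 6.50 and 7.18 in knockout and rescued cells of PICALM84 and 7.74 to 7.94 in the other 6 arrays. Mpo, a myeloid granule enzyme, and Myb, a progenitor transcription factor, were among the brightest 2% by their brightest probe sets. They were read as a check of the labelled cell type. The other genes of the list ran from percentile 96.5 of mean level (Ptprc) to 52.6 (Il3ra) by their brightest probe sets. The dendritic cell list had a mean of 6.29 and 5.88 in knockout and rescued cells of PICALM84 and 5.68 to 5.75 in the other 6 arrays. Of its 12 probe sets 4 were higher and 0 lower in PICALM84, against 22.1% and 18.7% of all probe sets. Flt3, a receptor of progenitors and dendritic cells, was at 9.60 and 8.01 in PICALM84 and 6.53 to 7.24 elsewhere, and Itgax, which encodes CD11c, was at 6.74 and 5.74 against 5.40 to 5.80. Xcr1, Zbtb46 and Batf3, which mark conventional dendritic cells, differed by 0.12 (adjusted p = 0.319 from limma), -0.08 (adjusted p = 0.434) and 0.04 (adjusted p = 0.696). The part of such cells in the class II values was not tested.

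For B cells the list mean was 5.82 and 5.72 in PICALM84 and 5.36 to 5.79 in the other arrays. In the line comparison 0 of 11 probe sets were called, against 22.1% of all probe sets higher and 18.7% lower. Pax5 and Cd79a, defining genes of B cells, gave -0.02 (adjusted p = 0.844 from limma) and 0.08 (adjusted p = 0.623). Cd79b, on the same list, varied widely. In knockout and rescued cells it was at 8.35 and 7.20 in PICALM6A, 5.96 and 4.93 in PICALM6B, 7.92 and 7.97 in PICALM6D, and 8.22 and 7.49 in PICALM84. For macrophages the mean was lower in PICALM84, at 8.46 and 8.53 against 8.85 to 9.47. Of the 12 macrophage probe sets 4 were lower and 0 higher, against 18.7% and 22.1% of all probe sets. Cd14, a receptor for lipopolysaccharide, differed by -1.29 (adjusted p = 0.0209 from limma) and Mrc1, the mannose receptor, by -1.65 (adjusted p = 0.0140). Both were opposite in direction to Cd74 and H2-Aa, but not every marker of the list was. By their brightest probe sets, Fcgr1 and Msr1 were highest in knockout cells of PICALM84, at 8.90 and 7.87. In its rescued cells they were at 8.28 and 7.29. For T cells the means were 6.27 and 6.36 against 6.18 to 6.35.

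Genes whose level over the 8 arrays was most like that of Tap1, among 12252 genes on none of the lists, were Kcnh2 and Apool (Pearson r of 0.996 each), then Nmi, Bbx and Parp12 (0.992 each). Nmi and Parp12 encode proteins induced by interferon. Correlations of this size were common, with 713 genes above 0.9, and the 8 points share lines, with PICALM84 far from the rest. For Cd74 the closest were Litaf (0.971), Gch1 (0.962), Atf3 and Traf6 (0.958 each) and Usp20 (0.957), and 75 genes were above 0.9. These values describe 8 arrays of 4 lines and carry no test.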

How the data were processed

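The deposited table holds log2 values, which the authors made by RMA normalization of 8 Affymetrix arrays. Per the labels these were the A version of the mouse chip, whose size the table matches, whereas the methods give the full chip. Array medians ran from 7.32 to 7.35 and genes were not centred. Of 22690 probe sets, 64 controls were left out, and of 22626 tested, 20380 carried 1 symbol, 691 several and 1555 none in the platform annotation. Gene IDs of 20351 were found in a current RefSeq table, which altered 0 symbols. Every column was mapped to a sample, and no filter on signal was used. Arrays give no counts, so their number limits the precision.

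Probe sets were tested with limma 3.58.1 (lmFit and eBayes, R 4.3.3, statmod 1.5.0). The tests were two-sided, p-values were adjusted by Benjamini and Hochberg's method across every probe set, and calls used the 12.3% threshold of the methods, which name SAM. Rescued and knockout arrays were paired by cell line, which both share. Within a line, the deviations of both arrays from their group means had correlations of 0.623 to 0.811, and all 8 arrays were closest to the other array of their line. PICALM84 was compared with the other lines on line means, and on within-line differences. The SAM statistic was rebuilt from its published form, with 16 sign changes of the lines. The code was checked on simulated data. A value per gene is that of its probe set with the highest mean level.

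The members, gene lists and motifs were chosen with earlier results of these data known. The text names all members, a set of pathway genes fixed by name, up to 4 more per list with the largest difference in PICALM84, and the 5 genes most like Tap1 and Cd74. The interferon genes Ifng and Ifnb1, the pathway genes Rfxap and Canx and the markers Xcr1, Zbtb46, Batf3, Pax5 and Cd79a were added to those after their values were seen. The markers Mpo, Myb, Fcgr1 and Msr1 are also named outside that rule. Alternatives were quantile normalization, median centring, leaving out the dimmest 40% of probe sets, a variance trend with robust settings, a threshold of 0.05, no block, SAM, the methods' t-test, the line as a random block, knockout or rescued arrays alone, an average over each gene's probe sets, and leaving out each line.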

Additional observations from a re-analysis of the deposited data

Results flagged for a closer look

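Among the 10 genes, 1 array of 4 lay far from the rest of its group by Dixon's criterion in 4 of 20 groups, and all 4 were arrays of PICALM84. Chance marks about 1 in 20 independent groups, but these groups come from the same arrays. Over all probe sets, both PICALM84 arrays exceeded the other 6 for 21.7%, and the share marked by the criterion was not computed. The count therefore does not set these genes apart from other genes. In knockout cells the marked values were B2m at a log2 level of 14.22, Tap1 at 10.73 and H2-Aa at 6.57, and in rescued cells H2-Aa at 5.79.

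The difference between rescued and knockout cells differed between PICALM84 and the other lines for 6 of the 10 genes in limma, with log2 values of -0.61 for B2m, -1.40 for Tap1, -0.86 for Tapbp, -1.05 for Psmb9, -0.50 for Cd74 and -0.75 for H2-Aa. Each condition of PICALM84 is 1 array, and the cause was not tested.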

How the results depend on the processing

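In the comparison of rescued with knockout cells, 0 of 19 probe sets were called under every limma setting, with or without the replicate block (0 of 19 without the block), as against 1 by SAM paired by line (592 of all probe sets) and 1 by the methods' t-test without adjustment. Single differences changed sign without PICALM84 for Tapbp (0.08, range -0.24 to 0.08 over the lines left out) and Cd74 (0.01, range -0.18 to 0.01), and for H2-Ab1, which lay near 0, with median centring (0.01), with the mean over probe sets (0.02) and without PICALM6D (0.04, range -0.03 to 0.04). The count without adjustment, an alternative chosen after seeing the data, was 4 with all lines, 6 without PICALM84 and 1 without the block.

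For PICALM84 against the other lines, 14 of the 19 probe sets were called, against 9232 of all 22626. Without the dimmest 40%, 9 were called (9 of the 19 were not tested), against 7528 of all 13576 tested. With rescued arrays alone 5 were called, against 4988 of all. Without one of the other lines 12 to 13 were called, against 7099 to 8467 of all. The sign changed for Tap2 with rescued arrays alone (a log2 of -0.04) and for H2-Ab1 with quantile normalization (-0.03). For the difference between lines of the PICALM effect, 8 were called, 4 at a threshold of 0.05 and 5 to 8 without one of the other lines, 5 without PICALM6B. Over all probe sets these counts were 1589, 502 and 780 to 1207. The cause was not tested. Calls of Tap2 and Cd74 in PICALM84 lay close to the threshold and were lost in several settings, Cd74 without PICALM6B (adjusted p = 0.197 from limma) or PICALM6D (0.139). Low signal limits H2-Ab1, H2-Aa and Ciita, 1 array per line and condition limits all results, and no value shows whether the deposited arrays differ in RNA quality.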
